A study of Mus musculus with 20 samples.

Results

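The hypoxia response genes examined here are 35 mouse genes: subunits and regulators of the hypoxia-inducible factors (HIFs), and genes outside glycolysis that are known to be induced by low oxygen. They were listed by name, each was represented by the transcript with the highest total over all tumours, and a normalised count of at least 10 in at least 5 tumours was required. All 35 met this requirement, out of 19844 genes that met it and 38947 named genes in the table. The genes were described over 20 mammary tumours, 5 in each of 4 treatment groups. The tumours grew from SSM3 cells, an oestrogen receptor-positive mouse mammary tumour line, implanted in an inguinal mammary gland. The hosts were 129S6/SvEv mice (strain also labelled 129/SvEv), 2 to 4 months old. Treatment began at a tumour size of about 150 mm3. Vehicle mice had sham surgery and 25 days of 5% ethanol in saline, and anti-PD-1 mice had the same plus 250 µg of an antibody against the checkpoint receptor PD-1 on days 3, 5 and 7. Letrozole mice were ovariectomised and received letrozole, an aromatase inhibitor, at 1 mg/kg daily for 25 days in the same solvent. The letrozole + anti-PD-1 group had both treatments. "Letrozole" below always means ovariectomy with the drug, whose effects cannot be told apart. All groups share 1 cell line and 1 host strain, and host cells are part of every tumour.

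In cells with enough oxygen, the prolyl hydroxylases encoded by Egln1, Egln2 and Egln3 mark the HIF alpha subunits, and the VHL protein then directs them to destruction. When oxygen falls the alpha subunits accumulate, pair with ARNT and bind short DNA elements near genes for blood vessel growth, pH control, mitophagy and collagen modification. Because this control acts on the protein, the mRNA level of Hif1a does not report HIF activity, and messages such as Adm, Vegfa, Car9 and Bnip3 are the usual readouts in solid tumours.

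Across the 35 genes, 7 fell with letrozole when its effect was averaged over the 2 antibody arms (without and with anti-PD-1), and 0 rose. The 7 were Ddit4, Kdm3a, Nfil3, Hif3a, Adm, Mif and Car12, with falls between 1.37-fold for Mif and 2.25-fold for Adm. They are 20% of the members, against 3.71% of all tested genes that fell and 3.29% that rose in this contrast. The members were chosen with earlier results of these data known and were not matched to all tested genes by level. The shares are thus a description and not a test of the list. A gene was called when its adjusted p was below 0.05 in limma, a linear model of log2(value + 1) over all 20 tumours, with Benjamini-Hochberg adjustment over all 19844 genes. The median log2 change of the 35 genes was -0.14, and that of all tested genes was 0.03. Of the 35 genes, 25 (71.4%) were lower, against 45.9% of all tested genes. An unadjusted limma p under 0.05 was found for 15 members, 13 of them lower. Among all 19844 tested genes, 2442 higher and 2099 lower ones had such a p. In a bulk tumour sample, fewer cells of a type and less RNA per cell cannot be told apart.

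**Figure D1:**
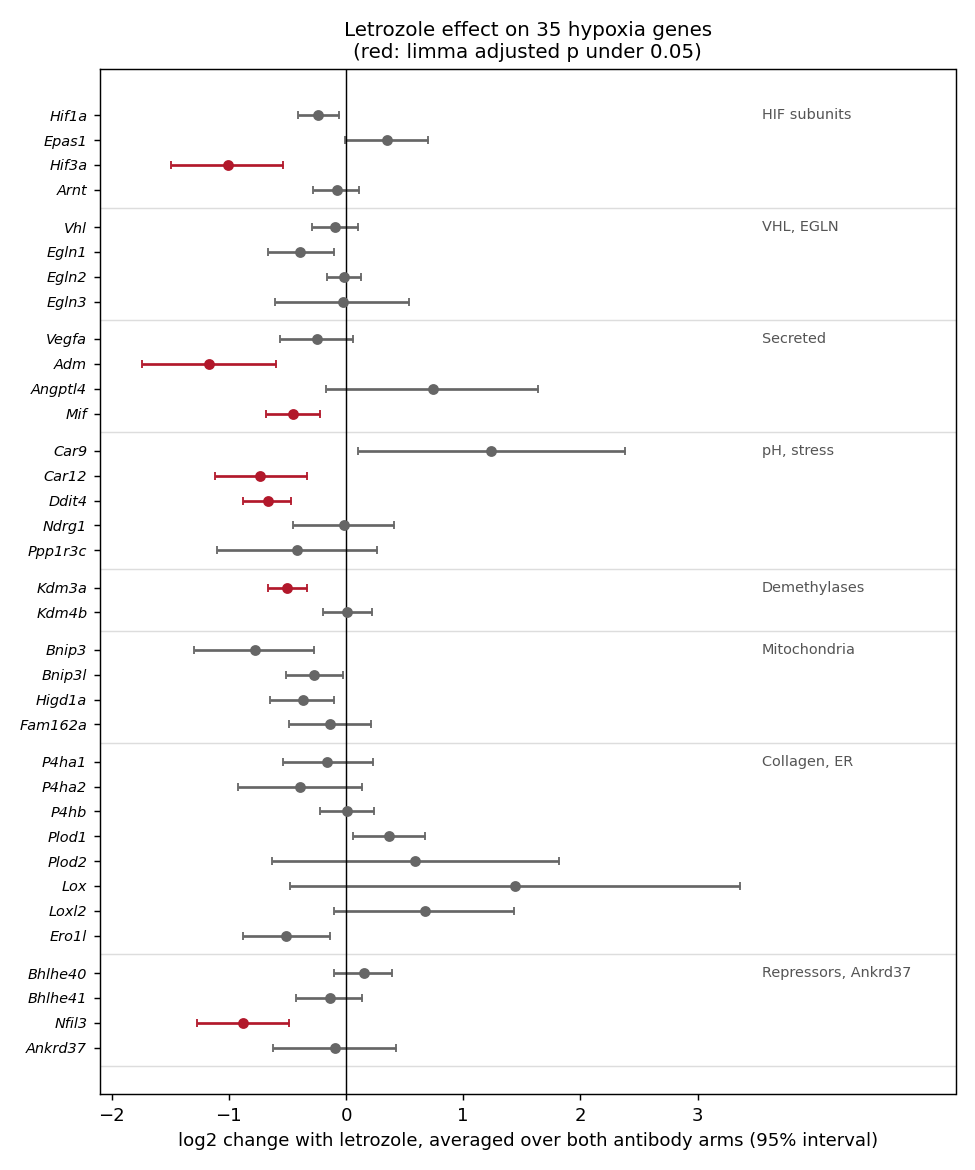
Log2 change with letrozole, averaged over both antibody arms, for each of the 35 genes, with its 95% confidence interval. The 7 called genes all lie below 0, between -1.17 and -0.45, and Lox has the widest interval.

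Promoter sequence is shown first for the members that fell and whose promoters hold the HIF core element, since these letters are what the factor recognises. The element was searched as ACGTG or GCGTG on either strand in the 250 bases before each RefSeq start (GRCm38.p6). Matches that share bases, such as those on the 2 strands of CACGTG, were counted separately. Of 26 members with such a window, 22 (84.6%) held at least 1 match, against 11226 of 27025 genes (41.5%). The narrower form ACGTG was in 16 members (61.5%) and in 18.5% of genes. The members' windows were also richer in G and C, with a median of 66.6% against 52.8%, and the part of base composition in these shares was not tested. Among the 7 genes that fell, Hif3a, Adm, Ddit4 and Kdm3a had a match, Kdm3a in 1 of its 3 start windows. Car12, Mif and Nfil3 had 0 matches in this window. The stretches that hold the matches are printed 5′ to 3′ on the gene's strand, with the element in capitals (CACGT and CACGC are the same element read on the other strand).
Hif3a, chr7:17062594-17062672, minus strand: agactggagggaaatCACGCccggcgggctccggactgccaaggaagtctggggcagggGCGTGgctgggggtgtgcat
Adm, chr7:110627552-110627622, plus strand: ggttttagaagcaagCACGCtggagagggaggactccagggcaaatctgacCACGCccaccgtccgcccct
Ddit4, chr10:59951866-59951972, minus strand: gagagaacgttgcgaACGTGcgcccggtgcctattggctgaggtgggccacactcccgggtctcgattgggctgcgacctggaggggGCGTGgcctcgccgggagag
Kdm3a, chr6:71632925-71632959, minus strand: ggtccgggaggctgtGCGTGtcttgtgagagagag
The richest window among the members, chosen after its values were seen, belongs to Fam162a, a mitochondrial protein gene that was not called and whose averaged log2 change was -0.14 (-0.23 without vehicle 3). It held 6 matches.
Fam162a, chr16:36071562-36071789, minus strand: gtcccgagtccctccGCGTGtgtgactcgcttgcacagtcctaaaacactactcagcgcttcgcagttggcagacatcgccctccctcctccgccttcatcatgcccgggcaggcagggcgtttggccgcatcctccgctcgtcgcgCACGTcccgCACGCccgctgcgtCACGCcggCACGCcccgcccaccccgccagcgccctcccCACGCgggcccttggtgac
A match is a description of these letters and not evidence of binding. Bnip3, with 5 matches, was not called either.

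The tumours expressed luminal epithelial markers in every library. The mean log2 level of the 9 luminal markers tested, of 10 listed, lay between 14.09 and 14.56, and 2 of the 9 rose with letrozole. Elf5, the remaining listed luminal marker, was not among the tested genes. Depth on the chosen transcripts ran from 12456356 to 31301954 reads. A pair of libraries stood apart in earlier analysis of these data, vehicle 3 and anti-PD-1 1, and both touch the members. Vehicle 3 was the lowest of all 20 tumours for 11 members, among them Egln1, Vegfa, Bnip3, Ero1l, Higd1a and P4ha1, and the highest for Plod1, Plod2 and Lox. Anti-PD-1 1, the shallowest library, was the highest for 8 members, Ddit4 and Kdm3a included. Where leaving out vehicle 3 ended or added a call in the averaged contrast or moved a change given here by over 1.5 times, the value without it is given. Leaving out anti-PD-1 1 alone left the same number of members called, 7, with Ddit4 at -0.62 and Kdm3a at -0.49 log2.

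The HIF subunits were first compared by level. Per kilobase of the chosen transcript, Hif1a, the ubiquitous alpha subunit, averaged 1601 ± 294.3 normalised counts (SD over 20 tumours). Epas1, which encodes HIF-2 alpha and is prominent in endothelial cells and macrophages, averaged 566.6 ± 159.4. Arnt, their common partner, averaged 538.7 ± 77.63, and Hif3a, whose products include inhibitory forms, averaged 21.01 ± 10.68. Hif1a was thus the most abundant subunit message, Epas1 and Arnt lay within each other's spread, and Hif3a was far lower in all 20 tumours. Among the regulators, Egln1 averaged 1597 ± 423.6 per kilobase and Egln2 786.9 ± 88.17. Egln3, itself a HIF target, averaged 584.3 ± 235.7 and Vhl 200.8 ± 28.33. The ranges of Egln1 and Hif1a overlapped, and the Egln3 range, from 146.4 to 1219, took in those of both Egln2 and Vhl.

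**Figure D2:**
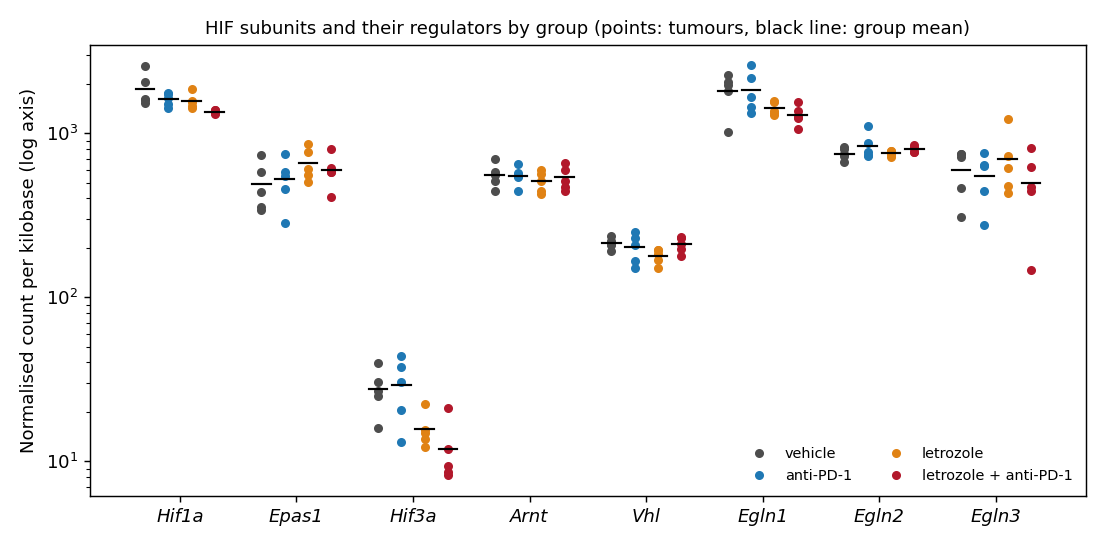
Normalised counts per kilobase of transcript (log axis) of HIF subunits and regulators in the 20 tumours, by group, each point a tumour. Hif3a lies far below the other genes in every group, and Egln3 has a wide range, from 146.4 to 1219.

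Hif3a was the subunit gene that fell. It measured 253, 160, 102, 194 and 171 normalised counts in vehicle tumours and 131, 279, 84.2, 241 and 194 in anti-PD-1 tumours. With letrozole it measured 95.8, 143, 78.6, 99.1 and 87.2, and with letrozole + anti-PD-1 135, 52.7, 54.9, 59.7 and 76.4. Most tumours without letrozole lay higher, and the ranges overlapped through vehicle 3, anti-PD-1 1 and anti-PD-1 3. The averaged log2 change was -1.01 ± 0.23 (SE), a 2.02-fold fall with an adjusted p of 0.0108 in limma. All 4 Hif3a transcripts above the filter were lower, by -1.11 to -0.77 on the log2 scale, although transcripts of a gene share reads.

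Hif1a was not called. It measured 7203, 12074, 7524, 9689 and 7581 in vehicle tumours, 7114, 7766, 6706, 8270 and 8222 in anti-PD-1 tumours, 6709, 7409, 8840, 7342 and 6873 with letrozole, and 6495, 6189, 6450, 6574 and 6277 with both. The letrozole + anti-PD-1 tumours lay in a narrow band below all anti-PD-1 tumours, whereas letrozole and vehicle tumours overlapped. The averaged change was -0.24 log2 (95% confidence interval -0.41 to -0.06, adjusted p = 0.0967, limma). For Hif1a, 8.1% of exon bases also belong to other genes, and whether reads were counted by strand is not known.

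Epas1 averaged 2693 ± 927 in vehicle, 2891 ± 943 in anti-PD-1, 3628 ± 826 in letrozole and 3290 ± 766 in letrozole + anti-PD-1 tumours (SD, n = 5 each). Its change was 0.35 log2 with an interval of -0.01 to 0.70, opposite in sign to Hif1a, and it was not called (adjusted p = 0.236, limma). Arnt averaged between 2203 ± 316 (letrozole) and 2408 ± 401 (vehicle), and its change was -0.08 log2. Neither gene separated the groups. Of 10 macrophage markers, all were higher with letrozole and 1 rose. Their mean log2 level ran from 7.30 to 10.24 in vehicle, 7.67 to 9.40 in anti-PD-1, 8.78 to 9.91 in letrozole and 8.74 to 9.89 in letrozole + anti-PD-1 tumours, and the part of macrophages in the level of Epas1 was not tested.

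None of the VHL and prolyl hydroxylase genes was called by limma: the 4 log2 changes ran from -0.39 to -0.02. Egln1, the main oxygen sensor among the hydroxylases, came nearest. It measured 8078, 7101, 3632, 7412 and 6472 in vehicle tumours, 9340, 7839, 5979, 4754 and 5218 in anti-PD-1 tumours, 4776, 5585, 5681, 4930 and 4645 with letrozole, and 5602, 4533, 3825, 4900 and 4469 with both. The vehicle values spread from the lowest of all 20 (vehicle 3) to well above every letrozole tumour. Its change was -0.39 log2 (-0.67 to -0.10, adjusted p = 0.0896, limma), and without vehicle 3 it was -0.49 with an adjusted p of 0.00751. On recovered reads of all 20 tumours, DESeq2 called Egln1 and edgeR did not. Egln2 averaged between 1583 ± 133 in vehicle and 1769 ± 328 in anti-PD-1 tumours. Egln3 averaged between 1328 ± 657 (letrozole + anti-PD-1) and 1841 ± 844 (letrozole), and its change was -0.03 log2 (-0.14 without vehicle 3), with an interval of -0.61 to 0.54 that leaves changes of either sign possible. Vhl averaged between 498 ± 50.4 in letrozole and 598 ± 45.7 in vehicle tumours, a difference that did not reach the threshold in any contrast.

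Ddit4, which encodes REDD1, a stress-induced inhibitor of mTORC1, gave the clearest separation. It measured 4282, 4279, 3714, 3732 and 4048 in vehicle tumours and 6324, 4225, 3875, 6246 and 4007 in anti-PD-1 tumours. It measured 2552, 2222, 3467, 2784 and 2979 with letrozole and 2453, 2741, 3124, 2801 and 2645 with both. All 10 letrozole-treated tumours lay below all 10 others, which held for no other member and for 0.257% of tested genes in that direction (0.197% in the other). The averaged fall was 0.67 on the log2 scale (log2 change -0.67 ± 0.10, 1.59-fold, adjusted p = 0.000308, limma).

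Kdm3a, a HIF-induced demethylase of histone H3 lysine, separated the groups almost as well. It measured 6357, 4851, 4740, 6244 and 4907 in vehicle tumours and 6574, 6368, 5168, 6152 and 6213 in anti-PD-1 tumours. The letrozole tumours had 4515, 4491, 4998, 3758 and 3505, and the letrozole + anti-PD-1 tumours 3407, 3968, 3631, 4464 and 3941. Only letrozole 3 reached into the vehicle range. The averaged change was -0.50 ± 0.08 log2, a 1.42-fold fall with an adjusted p of 0.00077 in limma, and all 14 Kdm3a transcripts above the filter were lower. The other demethylase listed, Kdm4b, averaged between 1858 ± 272 and 2007 ± 466 and had a change of 0.01 log2.

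**Figure D3:**
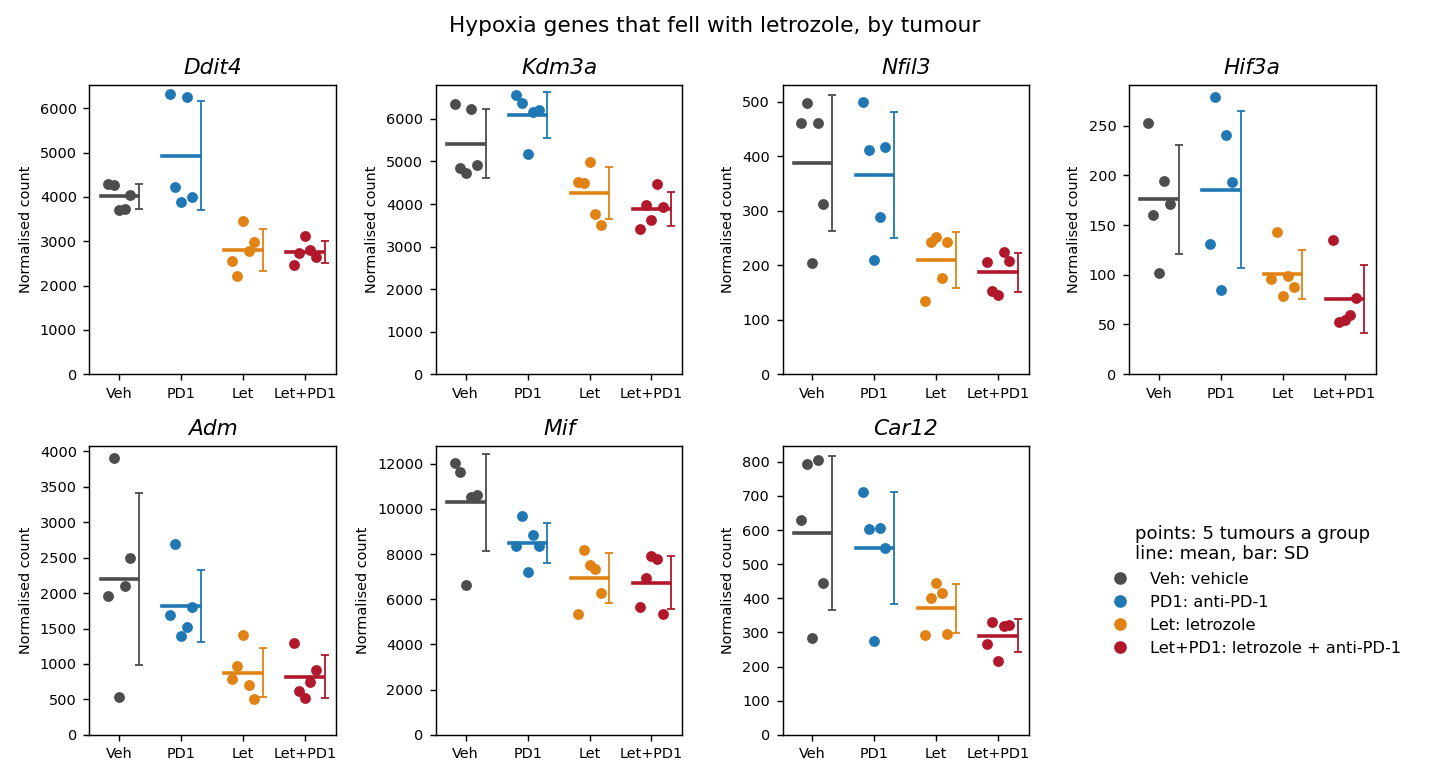
Normalised counts of the 7 genes that fell, each point a tumour and each line a group mean, in the 4 groups. For Ddit4 the 10 letrozole-treated tumours all lie below the lowest tumour without letrozole, at 3714.

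Among secreted factors, Adm and Mif fell, and Vegfa and Angptl4 did not pass the test. Adm encodes adrenomedullin, a vasodilating and angiogenic peptide. It measured 1964, 3910, 533, 2097 and 2488 in vehicle tumours, 1688, 2690, 1393, 1516 and 1807 in anti-PD-1 tumours, 788, 976, 1412, 710 and 509 with letrozole, and 1301, 625, 514, 750 and 911 with both. All letrozole + anti-PD-1 tumours lay below all anti-PD-1 tumours, and vehicle 3, at 533, was the only vehicle tumour inside the letrozole range. The averaged change was -1.17 ± 0.27 log2 (2.25-fold lower, adjusted p = 0.0129, limma).

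Mif, a cytokine of macrophages and tumour cells, measured 12042, 11607, 6610, 10538 and 10626 in vehicle tumours, 8343, 9665, 7212, 8854 and 8355 in anti-PD-1 tumours, 5350, 8180, 7519, 7325 and 6280 with letrozole, and 5677, 6921, 7892, 7765 and 5339 with both. The ranges overlapped through vehicle 3 and anti-PD-1 3. The change was -0.45 ± 0.11 log2, 1.37-fold, with an adjusted p of 0.0163 in limma. The chosen Mif transcript is annotated as retaining an intron, the coding one gave the same -0.45, and Mif has pseudogene copies, so its level is uncertain.

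Vegfa, the main angiogenic growth factor induced by HIF, measured 2723, 4670, 1747, 3537 and 3321 in vehicle tumours, 4344, 3723, 2134, 3149 and 2472 in anti-PD-1 tumours, 2561, 3007, 3150, 2280 and 2261 with letrozole, and 2718, 2175, 2886, 2313 and 2446 with both. The groups overlapped throughout. Its change of -0.25 log2 had an interval of -0.56 to 0.06 (adjusted p = 0.323, limma). Angptl4, a lipoprotein lipase inhibitor, ranged from 15.5 to 264 without letrozole and from 53.3 to 293 with it, and its change of 0.74 log2 was not called (adjusted p = 0.325).

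Carbonic anhydrases convert carbon dioxide to bicarbonate and help tumour cells control pH. Car12 measured 628, 794, 285, 805 and 446 in vehicle tumours, 712, 603, 275, 605 and 548 in anti-PD-1 tumours, 292, 402, 445, 416 and 297 with letrozole, and 266, 332, 217, 318 and 322 with both. Vehicle 3 and anti-PD-1 3 lay inside the letrozole range, and the other tumours without letrozole lay above it. The change was -0.73 ± 0.19 log2, 1.66-fold lower, with an adjusted p of 0.0237 in limma.

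Car9, the best known carbonic anhydrase of hypoxic tumours, was near the detection limit, with 0 to 27 reads per library. It measured 22.9, 3.40, 16.9, 4.76 and 21.3 normalised counts in vehicle tumours, 7.31, 12.6, 9.58, 9.99 and 19.0 with letrozole, and 16.2, 13.2, 4.64, 2.91 and 15.1 with both. It was at 0 reads in 4 of 5 anti-PD-1 tumours, where a count of 0 allows up to 3 reads or 3.76 to 6.35 normalised counts, and at 16.4 in anti-PD-1 5. The 4 zeros were in the 4 shallowest libraries of all 20, and the part of depth in them was not tested. Anti-PD-1 against vehicle gave -2.75 log2 at an unadjusted p of 0.0019 and an adjusted p of 1 in limma, a fitted value that depends on the pseudocount. The averaged letrozole change was 1.24 log2 (adjusted p = 0.179), and without anti-PD-1 5, which leaves 4 tumours at 0 in that group, it was 1.65 log2 with an adjusted p of 0.0247 (limma), again a value set by the pseudocount.

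Nfil3, a basic leucine zipper repressor, fell. It measured 462, 497, 204, 460 and 313 in vehicle tumours, 500, 411, 209, 288 and 417 in anti-PD-1 tumours, 135, 243, 252, 176 and 242 with letrozole, and 205, 152, 145, 224 and 208 with both. Again only vehicle 3 and anti-PD-1 3 lay inside the letrozole range. The change was -0.88 ± 0.19 log2 (1.85-fold lower, adjusted p = 0.00703, limma). The other HIF-induced transcription repressors did not pass: Bhlhe40 had a change of 0.15 log2 (0.07 without vehicle 3) and Bhlhe41, which shares 19.0% of its exon bases with an antisense gene, one of -0.14. Ankrd37, an ankyrin repeat gene that shares 26.4% of its exon bases with neighbours on the opposite strand, had a change of -0.09, or -0.28 without vehicle 3 (adjusted p = 0.387).

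The mitochondrial and mitophagy genes were all lower without passing the test in limma. Bnip3, a mitophagy receptor, measured 6588, 6784, 1363, 5910 and 5742 in vehicle tumours, 5111, 7081, 3605, 3028 and 3184 in anti-PD-1 tumours, 2517, 3447, 4301, 2270 and 1994 with letrozole, and 3026, 1963, 1934, 2487 and 2380 with both. Vehicle 3 lay below every other tumour, and the other 4 vehicle tumours lay above every letrozole tumour. The change was -0.78 log2 (-1.30 to -0.27, adjusted p = 0.0605, limma), and without vehicle 3 it was -1 with an adjusted p of 0.000653. Bnip3 shares 22.3% of its exon bases with an antisense gene. Bnip3l, its paralogue, had a change of -0.27 and Higd1a, a mitochondrial inner membrane protein, one of -0.37, with adjusted p of 0.171 and 0.0908. Without vehicle 3 the adjusted p of Bnip3l was 0.0435 and that of Higd1a 0.00184. Higd1a shares 22.5% and Fam162a 19.8% of exon bases with a gene on the opposite strand.

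Genes of collagen maturation and disulfide formation split in direction: 5 of 8 were higher and 3 lower, and 0 were called by limma. P4ha1 and P4ha2 encode the catalytic subunits of collagen prolyl 4-hydroxylase and had changes of -0.16 and -0.39 log2. Without vehicle 3 these were -0.31 and -0.57, still short of the threshold (adjusted p = 0.146 and 0.0721, limma). P4hb, protein disulfide isomerase, had one of 0.01 (-0.03 without vehicle 3). Ero1l, the endoplasmic reticulum oxidase, averaged 1876 ± 641 in vehicle, 1601 ± 453 in anti-PD-1, 1145 ± 148 in letrozole and 1208 ± 292 in letrozole + anti-PD-1 tumours. Its change was -0.51 log2 (adjusted p = 0.0869, limma), and without vehicle 3 it was -0.66 with an adjusted p of 0.00272. The lysyl hydroxylases and lysyl oxidases leaned the other way, with 0.37 for Plod1, 0.59 for Plod2 (0.91 without vehicle 3), 1.44 for Lox and 0.67 for Loxl2. Plod1 measured 308, 517, 715, 237 and 355 in vehicle tumours, and without vehicle 3 its change was 0.47 with an adjusted p of 0.0139. Lox ran from 0 reads in vehicle 4 to 1532 in vehicle 3, so the spread within 1 group exceeded any difference between groups. Its mean was 427.6 normalised counts without letrozole and 543.4 with it, and through the 0 the fitted 1.44 depends on the pseudocount. Of the remaining members, Ndrg1, a stress-induced gene, had a change of -0.02 log2 (-0.18 without vehicle 3), and Ppp1r3c, a glycogen-targeting phosphatase subunit, one of -0.42. Neither was called.

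Leaving out vehicle 3 raised the number of called members in the averaged contrast from 7 to 13, beside 11.9% of all tested genes called in place of 7%. The 7 remained called, and Egln1, Bnip3, Bnip3l, Ero1l and Higd1a (lower) and Plod1 (higher) joined them. Leaving out vehicle 3 and anti-PD-1 1 together gave 12 called members, 11 of them lower, beside 12.6% of all tested genes.

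Taken in each antibody arm alone, the contrasts called few members. Letrozole against vehicle called 0 of 35, beside 0.957% of all tested genes (0.408% higher, 0.549% lower). An unadjusted limma p under 0.05 was found for 10 members (9 lower), beside 1457 higher and 1289 lower of 19844 tested genes. On recovered reads, edgeR called 0 members and DESeq2 4. Without vehicle 3, limma called 8 members in this comparison. The share of all tested genes called in that fit is not given here. With anti-PD-1 in both groups, letrozole called 2, beside 1.07% of all tested genes (0.479% higher, 0.595% lower): Ddit4 at -0.81 ± 0.14 log2 (adjusted p = 0.00495) and Kdm3a at -0.65 ± 0.11 (adjusted p = 0.00609), both in limma. In that arm 5 members did not overlap and were lower (Hif1a, Adm, Ddit4, Kdm3a and Bnip3, beside 1.47% of all tested genes), and Plod1 did not overlap and was higher (beside 1.37%). In the arm without the antibody only Ddit4 did not overlap, lower in all letrozole tumours (beside 1.96% of all tested genes lower and 1.71% higher). The 2 arms share no tumours, and 20 members (57.1%) were lower in both, against 31.2% of all tested genes. The 7 called genes were lower in both arms, Adm by 1.15 and 1.18 and Nfil3 by 0.85 and 0.92 on the log2 scale, without and with the antibody. Since the 7 were selected on the average of the 2 arm changes, their agreement between arms is largely built in and is no separate test.

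**Figure D4:**
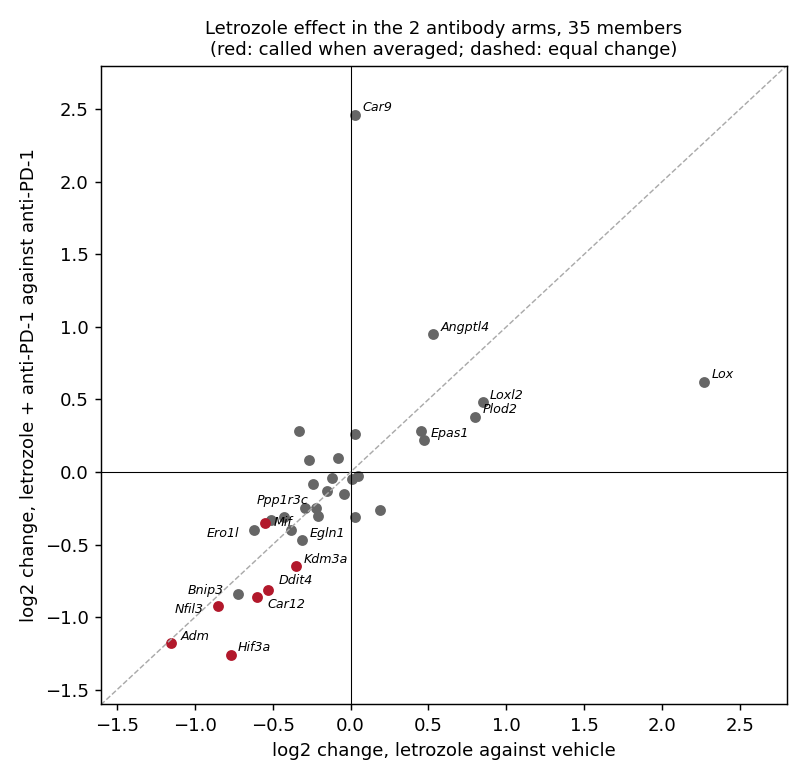
Log2 change with letrozole in the arm without anti-PD-1 (x axis) against the arm with it (y axis) for the 35 genes, red where called in the averaged contrast. The 7 called genes lie in the lower left, 20 genes in all are lower in both arms, and Car9 and Lox lie far from the line of equal change.

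The difference between the arms was tested itself and called 0 of 35 members, beside 0% of all tested genes in limma. Car9 alone had an unadjusted limma p under 0.05 in that interaction, at 0.0374, with a difference of 2.43 log2 and an adjusted p of 1, and its value in the anti-PD-1 arm rests on the zeros given above. Of 19844 tested genes, 216 with a positive and 176 with a negative difference had such an unadjusted p. DESeq2 and edgeR gave the same counts of 0 called members for the interaction. Anti-PD-1 against vehicle called 0 of 35 (beside 0% of all tested genes, 1 unadjusted, Car9), and adding anti-PD-1 to letrozole called 0 of 35 (beside 0%, 0 unadjusted). Of 19844 tested genes, 268 higher and 271 lower passed unadjusted in the first comparison, and 318 higher and 309 lower in the second. For Ddit4 the antibody effect without letrozole was 0.27 log2 (-0.02 to 0.56) and for Adm -0.06 (-0.86 to 0.74). These intervals leave room for changes in either direction. The combination against vehicle called 1 member, Kdm3a at -0.47 ± 0.11 (adjusted p = 0.0415, limma), beside 1.18% of all tested genes (0.459% higher, 0.721% lower). That call was lost under 18 of 35 alternatives, and without vehicle 3 the comparison called 12 members. The share of all tested genes called without vehicle 3 is not given here, so the 12 cannot be set against it.

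Markers of dividing cells moved with letrozole beside these genes. Of 12 mitosis genes, 9 fell in the averaged contrast, and their mean log2 level lay between 10.78 and 11.18 in vehicle, 10.74 and 11.02 in anti-PD-1, 9.76 and 10.55 in letrozole, and 10.18 and 11.04 in letrozole + anti-PD-1 tumours. With that mean as a covariate, Ddit4 (-0.65, adjusted p = 0.0256) and Kdm3a (-0.50, adjusted p = 0.0413) remained called in limma and the other 5 did not. The changes of those 5 were then -0.93 for Hif3a, -0.84 for Adm, -0.97 for Car12, -0.44 for Mif and -0.97 for Nfil3, with adjusted p between 0.0933 and 0.387. The mitosis mean itself moved with letrozole, so this fit cannot fully separate it from the treatment, and the cause of the lost calls was not tested. The share of all genes called under that covariate was 1.64%. Within groups, the correlation with the mitosis mean was between -0.26 (Car12) and 0.25 (Adm) for the 7 called genes, and none had an adjusted permutation p below 0.05. Other marker lists were higher with letrozole, averaged over both arms, without a called gene: 10 of 10 basal and myoepithelial markers (median 1.19 log2), 8 of 9 T cell markers (1.28) and 8 of 8 skeletal muscle markers (1.96). By arm, without and with anti-PD-1, the medians were 2.31 and 0.4 for basal, 1.2 and 1.06 for T cell, and 2.16 and 0.19 for muscle markers. The mean log2 levels of these lists overlapped between groups. They ran from 3.95 to 7.47 without letrozole and 4.66 to 10.2 with it for basal, 2.24 to 5.13 and 3.08 to 5.77 for T cell, and 1.44 to 4.17 and 1.45 to 6.84 for muscle markers, and their part in the results was not tested.

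Fibroblast markers showed a closer relation to several members. None of the 10 fibroblast markers was called with letrozole, and 9 of 10 were higher. Their mean log2 level ran from 5.92 to 11.15 in vehicle, 7.32 to 10.49 in anti-PD-1, 8.55 to 10.87 in letrozole and 8.70 to 10.55 in letrozole + anti-PD-1 tumours, with vehicle 4 the lowest and vehicle 3 the highest. The correlations that follow were computed over 20 tumours after removing group means, 140 relations in all (35 genes by 4 marker lists), with permutation within groups and adjustment over the 140. Each r without 2 tumours, here and below, kept the group means of all 20 tumours. Such an r can therefore still hold a difference between groups. For Lox, which crosslinks collagen, Pearson's r with the fibroblast mean was 0.92 and Spearman's rho 0.95, each with a permutation p of 1e-05, the smallest the draws can give (adjusted p = 0.0014). Without vehicle 3 and vehicle 4 the r of Lox was 0.88. Plod2 followed with an r of 0.89 and a rho of 0.81 (permutation p = 3e-05 and 0.00019, adjusted 0.0021 and 0.013), and Loxl2 with 0.84 and 0.78 (permutation p = 0.00011 and 0.00059, adjusted 0.0051 and 0.028). Angptl4 had 0.83 and 0.73 (permutation p = 0.00033 and 0.0026, adjusted 0.012 and 0.048). Without those 2 tumours r was 0.81 for Plod2, 0.75 for Loxl2 and 0.67 for Angptl4.

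Other HIF targets ran the opposite way. P4ha1 had an r of -0.76 and a rho of -0.72 (permutation p = 0.003 and 0.00084, adjusted 0.038 and 0.029), and Ero1l -0.76 and -0.66 (permutation p = 0.00095 and 0.0028, adjusted 0.016 and 0.048). Bnip3 had -0.73 and -0.66 (permutation p = 0.0023 and 0.0031, adjusted 0.032 and 0.048). For P4ha2, r was -0.71 (permutation p = 0.0037, adjusted 0.043), while its rho of -0.57 did not hold after adjustment (permutation p = 0.019, adjusted 0.16). Without vehicle 3 and vehicle 4, r was -0.75 for P4ha1, -0.64 for Ero1l, -0.65 for Bnip3 and -0.65 for P4ha2. P4hb, the other prolyl 4-hydroxylase subunit, had an r of -0.41 and a rho of -0.43 that did not hold (permutation p = 0.2 and 0.11, adjusted 0.36 and 0.34). Pooled over the groups after centring, Lox, Loxl2, Plod2 and Angptl4 were thus higher, and P4ha1, Ero1l and Bnip3 lower, in tumours with higher fibroblast markers. Over all 35 members the median r was -0.39, with 25 negative (71.4%), against a median of 0 and 49.6% negative over all tested genes. An r of -0.7 or lower was found for 4 members (11.4%) and 0.181% of all tested genes, and one of 0.7 or higher for 5 members (14.3%, Plod1 the fifth) and 5.75% of all tested genes. These shares are a description, since genes measured in the same tumours are not independent.

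**Figure D5:**
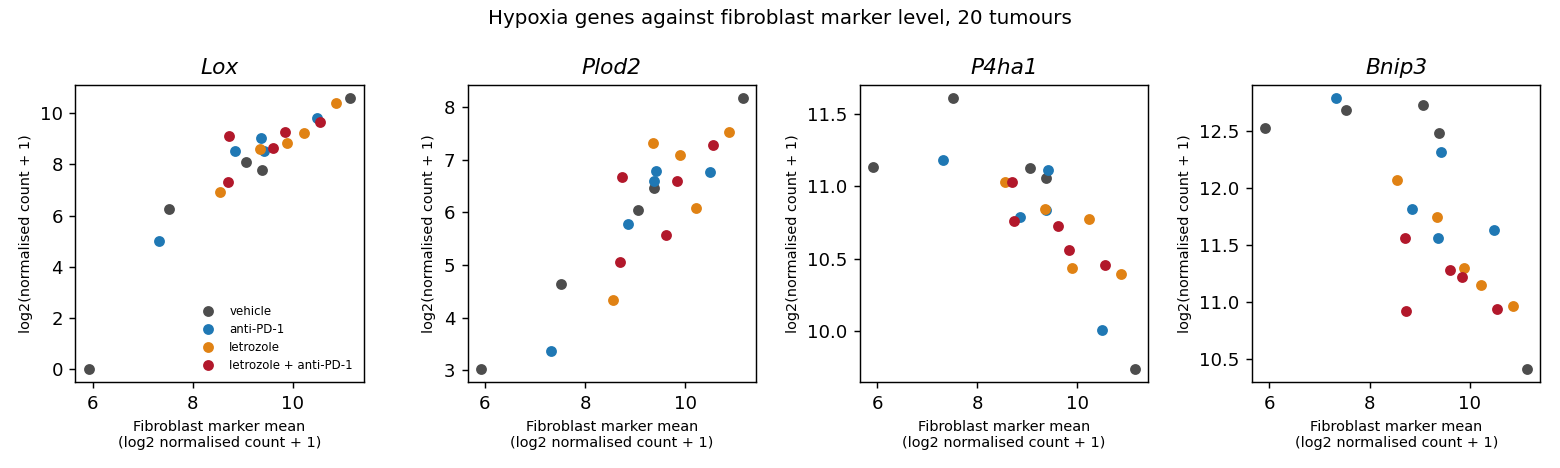
Log2 level of Lox, Plod2, P4ha1 and Bnip3 against the mean log2 level of 10 fibroblast markers, each point a tumour. Levels are plotted as measured, and the r values were computed after removing group means. Lox (r = 0.92) and Plod2 (r = 0.89) slope up, P4ha1 (r = -0.76) and Bnip3 (r = -0.73) slope down, and vehicle 3 and vehicle 4 lie at the ends.

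With the fibroblast mean as a covariate, 6 of the 7 genes remained called, beside 4.5% of all tested genes. Car12 was the exception, at -0.61 log2 and an adjusted p of 0.0639. The endothelial mean was related to Lox, Plod2 and Angptl4 (r = 0.85, 0.79 and 0.78, permutation p = 0.00067, 0.0008 and 0.001, each adjusted to 0.016). For Lox and Plod2 the rho of 0.66 did not hold after adjustment (permutation p = 0.0094 and 0.0067, adjusted 0.094 and 0.085), and for Angptl4 the rho of 0.76 did (permutation p = 0.0013, adjusted 0.029). Without vehicle 3 and vehicle 4 these r were 0.54, 0.61 and 0.57. Ndrg1 was related to the mitosis mean (r = 0.61, rho = 0.73, permutation p = 0.00054 and 0.0011, adjusted 0.015 and 0.029), with an r of 0.56 without letrozole + anti-PD-1 1 and 3. No member was related to the adipocyte mean after adjustment.

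Other genes of the pathway were set beside the members in the averaged contrast. Their lists, too, were chosen with earlier results of these data known, so the shares are a description. Of 22 glycolytic HIF targets tested, 7 fell (31.8%) and 0 rose, against 3.71% and 3.29% of all tested genes, with a median log2 change of -0.34. Hk2, which traps glucose as its phosphate, had -0.81, and Ldha, which makes lactate, -0.49. The glucose transporter Slc2a1 had -0.55, and the glycolytic enzymes Pfkp, Eno1 and Pgam1 had -0.57, -0.42 and -0.39. Their adjusted p in limma ran from 0.00621 (Hk2) to 0.0495 (Slc2a1). Of 11 other oxygen sensing and HIF pathway genes, such as Hif1an, Cul2 and Ep300, only Os9 passed, higher by 0.30 (adjusted p = 0.0244, limma). Of 39 other hypoxia-induced genes, 5 fell (12.8%) and 2 rose (5.13%), and their median change was 0.04. Those that fell were Stc2 (-2.61), Cited1 (-0.88), Hilpda (-0.83), Jmjd6 (-0.63) and Pnrc1 (-0.58), and Cav1 (1.04) and Pdgfb (0.49) rose, with adjusted p in limma from 1.44e-07 (Stc2) to 0.0445 (Pdgfb). Stc2 is a secreted glycoprotein, Hilpda a lipid droplet protein and Cav1 a coat protein of caveolae. Among 9 VEGF family and receptor genes, 0 were called by limma (2 unadjusted, both higher, beside 2442 higher and 2099 lower of 19844 tested genes). By median, the glycolytic list at -0.34 and the members at -0.14 lay below the 0.03 of all tested genes, and the wider hypoxia-induced list lay close to it.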

How the data were processed

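RNA from 20 tumours was sequenced after library preparation from 1 µg of total RNA, per the labels' protocols. The authors used STAR 2.7.10a and DESeq2 on GRCm39 (mm39), per the submitters' processing notes. No source used here gives the read counter, the annotation release or the strand setting. The deposited values are a signal: read counts of 127442 transcripts, scaled by 1 size factor for each library. The scaling was undone at a tolerance of 0.001, 100% of values came out as whole reads, and the recovered size factors ran from 0.472 to 1.46.

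From these values, GENCODE vM21 named 118889 transcripts (93.3%), and 38947 genes were each represented by the transcript with the highest total, 49 more being dropped for a shared symbol. Genes with at least 10 in at least 5 libraries were tested with limma 3.58.1 (trend, log2(value + 1), pseudocount 1) in 1 fit of 4 group means, all two-sided. Fold changes are on that scale and understate the change of low genes. Genes named in full were the HIF subunits and regulators, every called member, Vegfa, Adm and Car9, and up to 6 called genes of each other pathway list by p. Shared genes among lists (Gbe1 and Pfkfb4) count in both. Of the 12 oxygen sensing and 23 glycolytic genes listed, Arnt2 and Aldoa were not among the tested genes. The same holds for the markers Elf5 (luminal), Cd3g (T cell), and Myh4 and Pvalb (skeletal muscle). Marker lists for fibroblasts, endothelium, adipocytes, macrophages, T cells, skeletal muscle, luminal and basal cells and mitosis were means of log2(value + 1), and correlations used 100000 draws. Alternatives included count tests of the recovered reads (edgeR 4.0.16, DESeq2 1.42.0), and the scripts were checked on simulated data. The members and lists were chosen with earlier results of these data known. The labels call the tumours biological replicates. Promoter sequences and coordinates are from a RefSeq table of GRCm38.p6. Epas1, Kdm4b, Bnip3l, Ndrg1, Plod2, Lox, Loxl2, Bhlhe40 and Angptl4 were not matched in it by symbol.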

Additional observations from a re-analysis of the deposited data

Results flagged for a closer look

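Single tumours stood far from the rest of their group of 5 for 9 of the 140 combinations of member and group (35 genes by 4 groups), judged by the gap to the nearest tumour against the whole range. About 1 in 20 groups, or 7 of 140, would be marked in this way by chance. Vehicle 3 accounts for 7 of the 9. It was the lowest vehicle tumour for Bnip3 (1363 normalised counts), Bnip3l (1571.7), Ero1l (771.3), Higd1a (372.6) and Mif (6609.8), and the highest for Plod2 (286.4) and Lox (1531.5). Car9 was highest in anti-PD-1 5 (16.41), where the other 4 anti-PD-1 tumours were at 0 reads. Fam162a was highest in letrozole + anti-PD-1 1 (2710.2).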

How the results depend on the processing

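The counts of called members, each member's averaged change and the arm values of Ddit4 and Kdm3a were recomputed under 35 alternatives to the processing (33 for Car9). Ddit4 and Kdm3a were called under all 35, in the averaged contrast and in the arm with anti-PD-1. Hif3a, Adm, Mif and Nfil3 lost their averaged call only with the mitosis covariate, and Car12 with the mitosis and the fibroblast covariate. The number of members called in the averaged contrast (7) was 11 with DESeq2, 2 with the mitosis covariate, 13 with array weights and 12 without both libraries that stand apart, and ran from 7 to 13 when 1 tumour was left out, 13 without vehicle 3. For letrozole against vehicle (0) it was 1 with quantile normalisation, 4 with DESeq2, 4 with array weights and 10 without both libraries, and 0 to 8 with 1 tumour left out. For letrozole in the anti-PD-1 arm (2) it was 5 with DESeq2, and 2 to 5 with 1 tumour left out (4 without vehicle 3, 5 without anti-PD-1 3). For the combination against vehicle (1) it was 0 with no filter, with centring, with transcripts summed and with either covariate, 2 with a minimum of 50, quantile normalisation or the replicate block, 9 with DESeq2, 8 with array weights and 12 without both libraries, and 0 to 12 with 1 tumour left out. It was 0 in every leave-one-out fit for both antibody contrasts and the interaction. These counts are listed without the share of all tested genes called in each fit. Changes of sign were seen for 9 members, none of them called. Egln2 was 0.02 with array weights and 0.05 without both libraries (-0.04 to 0.03 with 1 tumour left out). Egln3 was 0.03 with edgeR, 0.03 with DESeq2 and 0.07 with the fibroblast covariate (-0.15 to 0.16). Kdm4b was -0.03 with centring (-0.03 to 0.07). P4hb was -0.03 with centring and -0.01 with edgeR and DESeq2 (-0.03 to 0.08). Ndrg1 was 0.09 with quantile normalisation (-0.18 to 0.06). The fibroblast covariate gave Ankrd37 0.12, Ndrg1 0.14, P4ha1 0.05, Plod2 -0.19 and Fam162a 0.03, and the mitosis covariate gave Ankrd37 0.27, Ndrg1 0.58, P4ha1 0.07 and Fam162a 0.16. The cause of these shifts was not tested. Replicate numbers did not pair the tumours: over 30 same-numbered pairs the correlation of deviations from group means was -0.34 to 0.20, above 0.1 in 3. The replicate block left the averaged count at 7 and gave 3 in the anti-PD-1 arm. At 0 to 27 reads per library, Car9 is the member whose depth limits its values in every group. Low reads in single libraries also limit Lox (0 in vehicle 4), Plod2 (6 in vehicle 4 and in anti-PD-1 2) and Angptl4 (13 in vehicle 4).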
